A study of Mus musculus with 2 samples.

Results

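The neurotrophins and the GDNF family ligands are secreted proteins that keep neurons alive and shape their connections. Among the genes of both families other than Bdnf, 8 were followed here: the ligand genes Ntf3 and Gdnf, and the receptor genes Ntrk2, Ntrk3, Ngfr, Gfra1, Gfra2 and Ret. They were taken by name, with earlier results of these data known, among them the loop number at Gfra2. All 8 were found by symbol among the 21883 protein-coding genes of a RefSeq table on GRCm38.p6, the assembly of the mouse build mm10. For each gene, every chromatin loop with an anchor within 2.5 kb of a gene end (a gene-end loop) or else inside the gene (a body loop) was taken from both loop lists.

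Loops were mapped by Hi-C with an Arima kit, in which DNA segments that lie near each other in the nucleus are joined and sequenced. In the MCAO group a filament blocked the middle cerebral artery of mice for 1 h, and the cortex of the same side was taken after 6 h of reperfusion. Sham mice had the operation without the filament reaching the artery, and their cortex was taken after 6 h of recovery. The labels name 3 flash-frozen cortices per group without stating whether, or at which step, they were pooled, and each group has 1 loop list. No difference below therefore has a replicate check, no test between the groups was made, and all intervals are 95% intervals for counting error only. The labels used here give no strain or age. A loop list holds no expression, so the tissue could not be checked against marker genes, and in bulk cortex a change in the number of cells of a type cannot be told apart from a change within each cell.

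Neurotrophin-3, the product of Ntf3, binds the receptor tyrosine kinase TrkC (Ntrk3), while BDNF and neurotrophin-4 bind TrkB (Ntrk2), which also exists in shorter forms without a kinase domain. All neurotrophins bind the p75 receptor (Ngfr), which has no kinase of its own. GDNF and neurturin bind GFRα1 (Gfra1) and GFRα2 (Gfra2), which are anchored to the outer face of the cell membrane and signal through the receptor tyrosine kinase RET (Ret).

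The MCAO library held 15592 loops and a total of 40550536 paired-end tags (PETs, read pairs). The sham library held 14779 loops and 34974213 PETs, a depth ratio of 1.16. The PETs of a loop are the read pairs that join its anchors. Both lists begin at 10 PETs per loop, so a missing loop may lie just under that limit. Loops had a median span, midpoint to midpoint, of 309 kb in the MCAO list and 377 kb in the sham list. The median anchor was 20.7 kb wide in the MCAO list and 24.8 kb wide in the sham list.

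Promoter sequences show where loops meet the members' starts. The RefSeq promoter table (GRCm38.p6) matched 5 of the 8 genes, Ntrk2, Ngfr, Ntf3, Gdnf and Gfra1. For the 4 of these that had loops, the 250 bases before a listed start are printed 5′ to 3′ on the gene's own strand, with each CpG in capitals. They lie at chr13:58806319-58806568 (plus strand) for Ntrk2, chr6:126166745-126166994 (minus strand) for Ntf3, chr15:7809798-7810047 (plus strand) for Gdnf and chr19:58455399-58455648 (minus strand) for Gfra1.
Ntrk2: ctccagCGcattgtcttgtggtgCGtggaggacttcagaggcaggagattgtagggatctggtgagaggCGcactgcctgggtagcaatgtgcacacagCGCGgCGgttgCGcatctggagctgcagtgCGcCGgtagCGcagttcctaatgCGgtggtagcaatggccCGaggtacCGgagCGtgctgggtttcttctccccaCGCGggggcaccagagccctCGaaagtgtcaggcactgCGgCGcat
Ntf3: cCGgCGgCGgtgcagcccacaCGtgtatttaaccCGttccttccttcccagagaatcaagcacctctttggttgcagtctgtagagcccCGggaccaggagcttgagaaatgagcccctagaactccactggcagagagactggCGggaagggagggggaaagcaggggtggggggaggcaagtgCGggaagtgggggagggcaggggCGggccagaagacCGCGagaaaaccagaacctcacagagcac
Gdnf: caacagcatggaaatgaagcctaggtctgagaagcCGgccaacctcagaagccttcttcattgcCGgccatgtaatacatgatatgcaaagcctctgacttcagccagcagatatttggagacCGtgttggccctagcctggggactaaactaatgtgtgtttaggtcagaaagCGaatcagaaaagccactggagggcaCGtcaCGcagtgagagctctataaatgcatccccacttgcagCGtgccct
Gfra1: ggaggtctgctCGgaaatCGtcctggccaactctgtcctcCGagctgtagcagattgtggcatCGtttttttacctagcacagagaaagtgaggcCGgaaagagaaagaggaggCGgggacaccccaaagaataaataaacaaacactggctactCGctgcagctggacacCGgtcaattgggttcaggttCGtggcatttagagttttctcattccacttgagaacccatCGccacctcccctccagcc

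Anchors covered the Ntrk2 stretch in 2 MCAO loops and 0 sham loops, and the Ntf3 stretch in 3 MCAO loops and 1 sham loop. They covered the Gfra1 stretch in 3 MCAO loops and 2 sham loops, and the Gdnf stretch in 2 loops of each list. The stretches held 19 CpGs at Ntrk2, 11 at Ntf3, 10 at Gfra1 and 7 at Gdnf, against a median of 6 over the 32851 promoters of the table. The table has a second start each for Ntf3 and Gdnf. The stretch before it held 14 CpGs at both genes and was covered by 3 loops in MCAO and 1 in sham at Ntf3, and by 2 in MCAO and 3 in sham at Gdnf. On both strands, none of the 4 held the core motif of the insulator protein CTCF (found in 7.17% of all promoters), the cAMP response element TGACGTCA (1.55%), the AP-1 motif TGANTCA (6.75%) or the EGR motif GCGNGGGCG (4.70%). Anchors are far wider than these stretches, so the letters cover only a small piece of each. Among the 5 genes with a known strand, the gene-end loops touched the start and not the far end in 10 of 10 cases in MCAO and in 5 of 5 cases in sham. Over all such genes of at least 25 kb, 57.6% of gene-end loops in MCAO and 54.2% in sham touched the start alone. Loops of a gene share anchors, so the members' cases are not independent of each other.

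Gene-end loops were more numerous in the MCAO list at 5 of the 8 genes, Gfra2, Ntrk2, Ntrk3, Ntf3 and Gfra1, and fewer at none. Over all 21883 genes, 28.7% had more in MCAO and 20.7% had fewer. Of the 989 genes of at least 200 kb, 397 had more and 279 had fewer, and 3 of the 8 members are that long. Gdnf and Ret had the same number in both lists, and Ngfr had no gene-end loop in either list, as did 38.4% of all genes. With a window of 10 kb at gene ends, Gdnf (2 in MCAO, 3 in sham) and Ret (1 in MCAO, 2 in sham) had fewer in MCAO. Together the 8 genes had 23 gene-end loops in MCAO and 10 in sham, and without Gfra2 15 in MCAO and 8 in sham. Counted gene by gene, all genes together had 18573 in MCAO and 15296 in sham. With at least 15 PETs required, the 8 genes kept 11 in MCAO and 6 in sham. At the sham depth, 17.8 would be expected to be kept in MCAO, against 10 in sham, a difference of 7.79 in place of 13. The median difference, MCAO minus sham, was 1.5 loops for the 8 genes and 0 for all genes. At Gfra2 the difference was 6 (-1.12 to 9.50), and the interval of each of the 6 other genes with a loop also held 0. A difference of at least 6 was found at 0.0594% of all genes. The loop number at Gfra2 was known when the genes were chosen, so this share describes Gfra2 and cannot test it.

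Body loops did not lean the same way. There were 11 in MCAO and 10 in sham, with more in MCAO at Ntrk3, fewer at Gdnf and Gfra2, and equal numbers at Ntrk2, Gfra1 and Ret. Over all genes, 7.7% had more body loops in MCAO and 6.72% had fewer, while 82.7% had none. Long genes hold more of them: of the 989 genes of at least 200 kb, 36.1% had more in MCAO and 41.8% had fewer. The difference of 1 body loop turned to -1 when loops of at least 100 kb were kept. Thinning the MCAO library to the sham depth turned it to an expected -4.25. Thinning can only lower the MCAO number, and no thinned value over all genes is given, so this turn does not set the members apart.

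**Figure D1:**
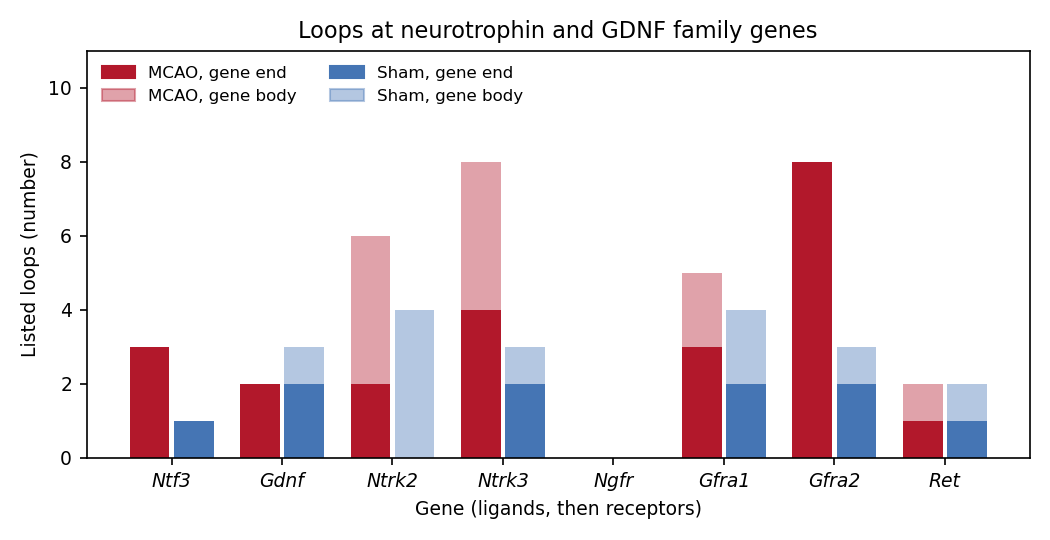
Number of loops (y axis) at each of the 8 genes in the MCAO list (red, left bar) and the sham list (blue, right bar), with gene-end loops in the dark shade and body loops in the light shade. Gfra2 has 8 gene-end loops in MCAO and 2 in sham, Ntrk3 has 4 in MCAO and 2 in sham, and Ngfr has none in either list.

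Of the ligand genes, Ntf3 had 3 loops in MCAO and 1 in sham. Ntf3 lies on chromosome 6 (126101412 to 126166772, minus strand) and is 65.4 kb long. All 4 loops touched its start, and none lay in its body. The strongest had 40 PETs in MCAO and 24 in sham and joined the start to the same place, a stretch 544 kb away in MCAO and 534 kb away in sham that lies inside Vwf, the gene of the clotting protein von Willebrand factor. Scaled for depth this is 0.986 PETs per 1000000 in MCAO and 0.686 in sham, a ratio of 1.44 (0.846 to 2.49), so the interval held 1.

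The other Ntf3 loops were listed in MCAO alone and were weak. A loop of 12 PETs spanned 521 kb to an end of Kcna6, a voltage-gated potassium channel gene, on the opposite side from Vwf. A loop of 10 PETs spanned 753 kb to a stretch without a gene end, whose nearest gene, Plekhg6, was 19.7 kb away. Larger loops also passed over Ntf3 without touching it, 6 in MCAO with up to 58 PETs and 2 in sham with up to 14 PETs. The strongest of these in MCAO had an anchor at Vwf and Ano2, a gene of a calcium-activated chloride channel, and ended at 126340767 to 126408296, beyond Ntf3. Thus more loops were listed both at and around Ntf3 in MCAO, with 11 in MCAO and 6 in sham that had an anchor within 500 kb.

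Gdnf, on chromosome 15 (7810048 to 7837580, plus strand, 27.5 kb), had 2 gene-end loops in each list, and no loop of either list had a counterpart in the other. A loop counts as a counterpart when each of its midpoints lies within 1 anchor width, taken from the wider loop, of the midpoint it is matched to. In MCAO the loops reached away from the gene in the direction of lower coordinates. A loop of 11 PETs spanned 928 kb to an end of Osmr, the oncostatin M receptor gene, and covered its promoter. A loop of 12 PETs spanned 355 kb to a stretch 51.6 kb from Egflam, a gene of the extracellular matrix protein pikachurin.

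In sham, Gdnf had a loop of 12 PETs over 238 kb in that direction, ending at 7557103 to 7576066 and 158 kb from Egflam. Both other sham loops ran the opposite way. A loop of 10 PETs spanned 46.6 kb to a stretch 8.90 kb from Wdr70, and a body loop of 12 PETs spanned 279 kb to an anchor over the ends of Wdr70 and of Nup155, a nuclear pore gene. The nearest loop of the other list was 5.05 to 13.2 anchor widths away for the Gdnf loops, so the lists named different partners for the same start. All 5 loops had 10 to 12 PETs and lie next to the minimum of the lists.

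**Figure D2:**
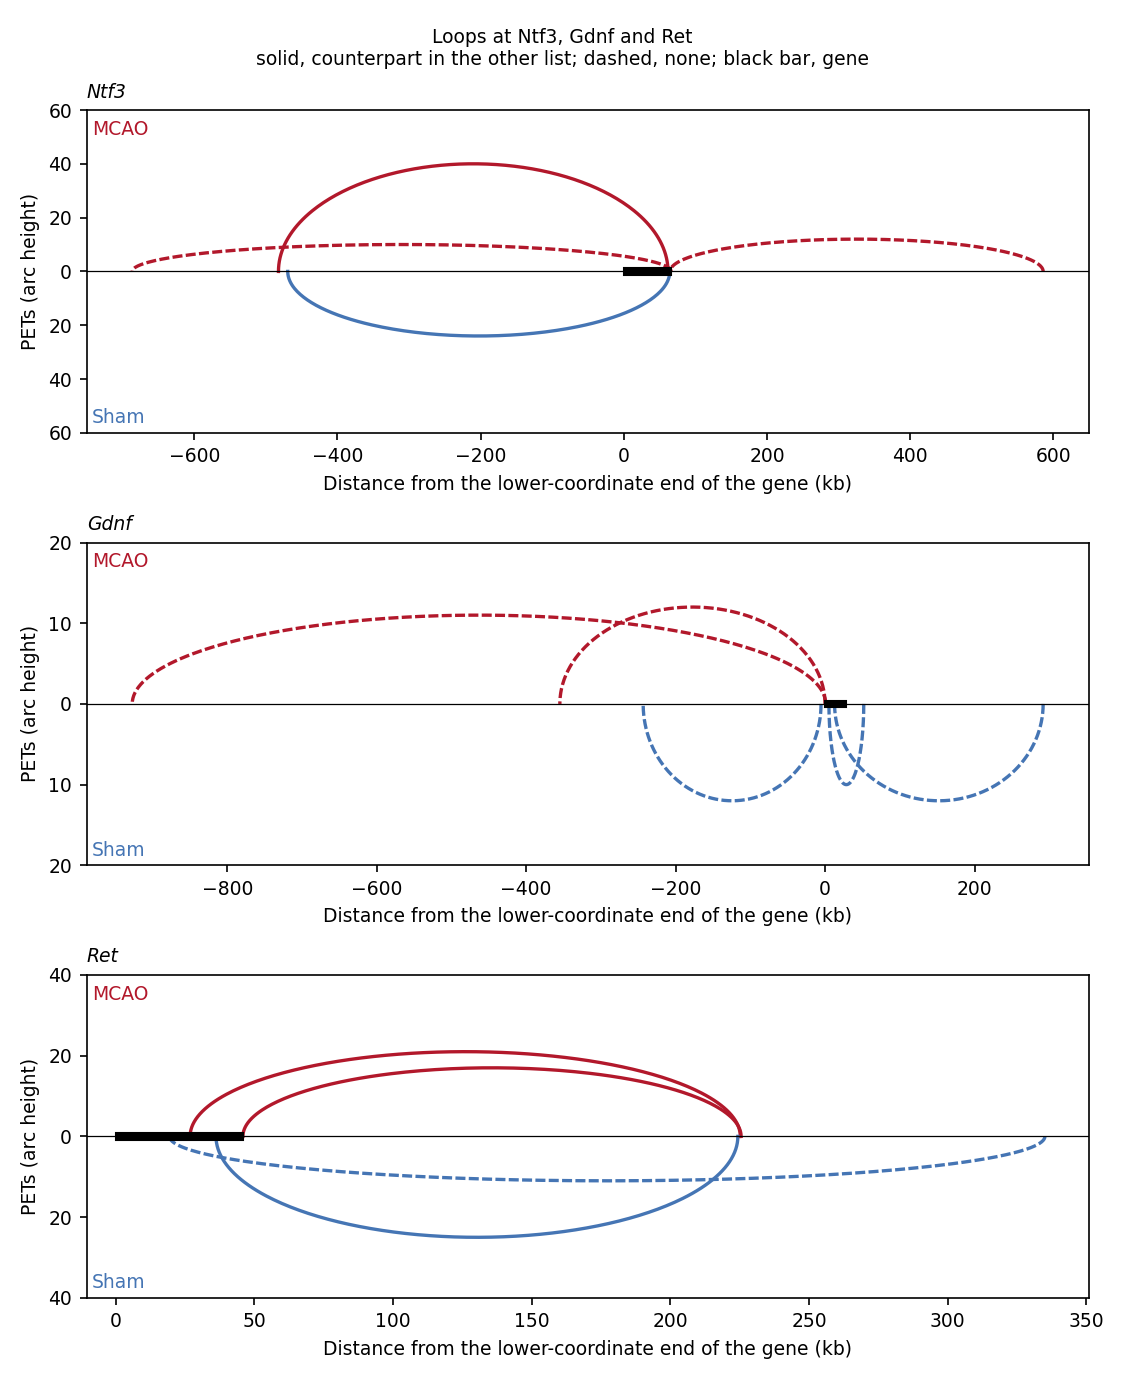
Loops at Ntf3, Gdnf and Ret, with MCAO above the line (red) and sham below it (blue); the x axis is the distance from the lower-coordinate end of the gene in kb and the height of an arc is its number of PETs. Solid arcs have a counterpart in the other list: the Vwf loop of Ntf3 (40 PETs in MCAO, 24 in sham) and the Bms1 loops of Ret do, and no Gdnf loop does.

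Ntrk2, the TrkB gene, had its longest loops in the sham list. It lies on chromosome 13 (58806472 to 59133970, plus strand) and is 327 kb long. In MCAO 6 loops were listed with 10 to 14 PETs and spans of 64.2 to 263 kb, and in sham 4 loops with 10 to 25 PETs and spans of 112 to 448 kb. None had a counterpart, and the nearest loop of the other list was 2.66 to 4.93 anchor widths away. PETs summed to 66 in MCAO and 63 in sham, or 1.63 per 1000000 in MCAO and 1.80 in sham.

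In MCAO 2 loops left the start of Ntrk2, where sham had none. A loop of 14 PETs joined the start to 59067401 to 59083902, inside the gene and 263 kb downstream. A loop of 10 PETs reached 165 kb upstream, 25.1 kb from Slc28a3, a nucleoside transporter gene. Of the 6 MCAO loops, 4 had both anchors within Ntrk2. Another left its downstream portion and ended 7.62 kb beyond the gene.

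All 4 sham loops at Ntrk2 were body loops, and 3 of them left its downstream portion. The strongest, with 25 PETs, joined 59048112 to 59094223 to an anchor 402 kb away over an end of Agtpbp1, the gene of an enzyme that trims glutamate chains from tubulin. A loop of 18 PETs reached back over the start, 448 kb, to an end of Slc28a3. That partner stretch overlaps the partner of the 10 PET loop from the Ntrk2 start in MCAO. This neighbourhood was thus listed with the start of Ntrk2 in MCAO and with its downstream portion in sham. The MCAO loop stands at the minimum of the lists, and a contact missing from a list may lie just under that minimum. Only 1 sham loop had both anchors inside Ntrk2, with 10 PETs over 165 kb.

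Stronger contacts passed over Ntrk2 as a whole. The strongest had 48 PETs over 734 kb in MCAO and 69 PETs over 749 kb in sham, or 1.18 PETs per 1000000 in MCAO and 1.97 in sham. It joins the Slc28a3 side to the Agtpbp1 side and was matched between the lists. Another MCAO loop over Ntrk2, of 37 PETs over 840 kb (0.912 per 1000000), was matched to the same sham loop. The far anchor of that sham loop (59336651 to 59457529) overlaps the far anchors of both MCAO loops. The values of 48 and 69 PETs therefore do not compare the same contact, and a loss in MCAO cannot be read from them. With at least 15 PETs required, Ntrk2 kept 0 loops in MCAO and 2 in sham. At the sham depth 2.73 of its loops would be expected to be kept in MCAO, against 4 in sham, though thinning can only lower the MCAO number.

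Ntrk3, the TrkC gene, had the longest loops. It lies on chromosome 7 (78179986 to 78581034) and is 401 kb long. It had 4 gene-end and 4 body loops in MCAO, with 133 PETs in all, and 2 gene-end loops and 1 body loop in sham, with 37 PETs. Spans ran from 496 to 2666 kb in MCAO and from 520 to 1927 kb in sham. All gene-end loops touched the higher-coordinate end.

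Most Ntrk3 loops ended in Agbl1 or up to 10.6 kb from it, a gene of a carboxypeptidase of the same family as the Agtpbp1 enzyme. A stretch inside Agbl1 (76365262 to 76414840) was the partner of 2 loops in MCAO and 1 in sham, and a stretch at and just beyond its end (77098688 to 77169527) of 3 in MCAO and 1 in sham. These are the places where the lists matched. The body loop over 1937 kb in MCAO and 1927 kb in sham had 10 PETs in MCAO and 11 in sham, a depth-scaled ratio of 0.784 (0.299 to 2.03). The gene-end loop over 1450 kb in MCAO and 1444 kb in sham had 18 PETs in MCAO and 14 in sham, a ratio of 1.11 (0.521 to 2.41). Neither interval leaves out 1.

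The strongest Ntrk3 loop was listed in MCAO alone. It had 35 PETs, spanned 2666 kb and ended 6.30 kb from Klhl25, the gene of a ubiquitin ligase adaptor. Another MCAO loop, of 22 PETs over 496 kb, left the gene body in the opposite direction and ended 5.74 kb from Mrpl46, a mitochondrial ribosomal protein gene. The sham list had a loop of 12 PETs over 520 kb, to a stretch 101 kb from Ntrk3 that holds no gene. With at least 15 PETs required, 4 Ntrk3 loops were kept in MCAO and 0 in sham. Around the gene the order of the lists was the other way, with 16 loops in MCAO and 18 in sham that had an anchor within 500 kb. Having at least 5 loops more in MCAO, gene-end and body loops added up, was found at 5.97% of the genes of at least 200 kb.

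**Figure D3:**
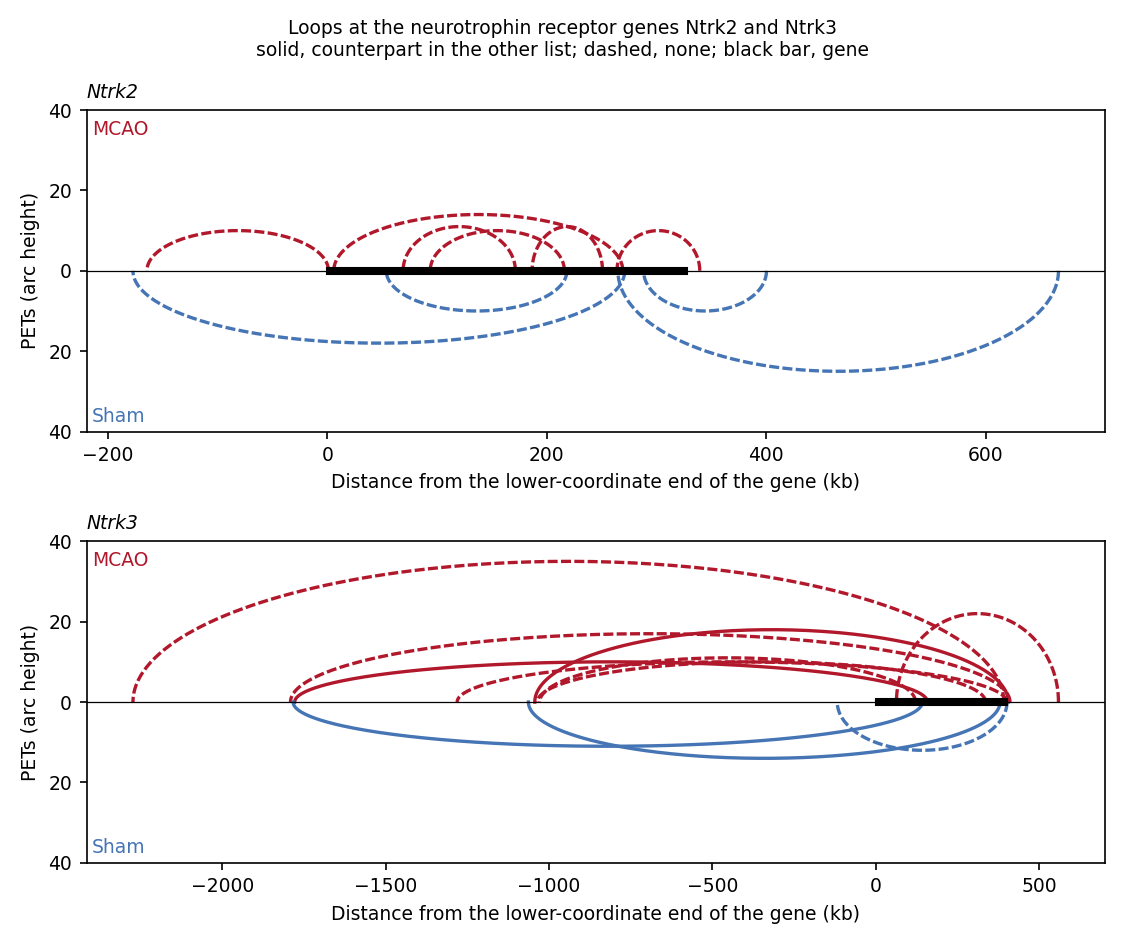
Loops at Ntrk2 and Ntrk3, with MCAO above the line (red) and sham below it (blue); the x axis is the distance from the lower-coordinate end of the gene in kb and the height of an arc is its number of PETs. Ntrk2 has arcs of 10 to 14 PETs in MCAO. In sham its arcs of 18 and 25 PETs are wider than these, and its arcs of 10 PETs fall inside the MCAO range of spans. All Ntrk2 arcs are dashed because none has a counterpart, while both lists join Ntrk3 to places more than 1 Mb away.

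Ngfr, the p75 gene, had no loop in either list. It is the shortest of the 8 genes, 18.9 kb on chromosome 11 (95568818 to 95587698, minus strand). The nearest anchor was 9.92 kb away in MCAO, in a loop of 10 PETs over 1073 kb, and 29.3 kb away in sham. The sham anchor belonged to a loop of 11 PETs over 186 kb that passed over Ngfr and touched an end of Nxph3, a gene of a secreted neurexin ligand. In MCAO a different loop of 18 PETs over 119 kb passed over the gene. In the neighbourhood, 6 loops in MCAO and 6 in sham had an anchor within 500 kb. This was the lowest number of the 8 genes in MCAO, while in sham Ntf3 also had 6 and Gdnf had 5.

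Gfra2, the neurturin receptor gene, had 8 gene-end loops in MCAO and 2 gene-end loops and 1 body loop in sham. It lies on chromosome 14 (70890107 to 70979840) and is 89.7 kb long. PETs summed to 178 in MCAO and 70 in sham, or 4.39 per 1000000 in MCAO and 2.00 in sham. Of the MCAO loops, 7 touched the lower-coordinate end and 1 the higher-coordinate end. Having at least 8 gene-end loops in MCAO was found at 0.114% of all genes. The loop number at Gfra2 was known beforehand, so this share is a description only.

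The strongest Gfra2 contacts stood in both lists. A loop over 1291 kb in MCAO and 1309 kb in sham had 50 PETs in MCAO and 34 in sham, or 1.23 per 1000000 in MCAO and 0.972 in sham. Its ratio was 1.27 (0.804 to 2.02). A loop over 736 kb in MCAO and 760 kb in sham had 40 PETs in MCAO and 22 in sham, or 0.986 per 1000000 in MCAO and 0.629 in sham. Its ratio was 1.57 (0.910 to 2.77), and both intervals held 1. The partner stretches (72148452 to 72234606 and 71619241 to 71688196 in MCAO) lie on the higher-coordinate side and hold no protein-coding gene. For the nearer of them, the nearest such gene was Gfra2 itself, 639 kb away.

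The 6 other MCAO loops of Gfra2 had no counterpart. Of these, 3 were long: a loop of 25 PETs over 988 kb and a loop of 12 PETs over 911 kb that share a partner stretch (71860584 to 71914351), and a loop of 15 PETs over 1409 kb. Their partners also hold no protein-coding gene, and the nearest is the predicted gene Gm9195, 124 to 538 kb away. The sham body loop, of 14 PETs over 1438 kb, ended near the partner of the 1409 kb loop, 1.57 anchor widths from matching it. The remaining 3 MCAO loops were short. They joined the lower-coordinate end to Dok2, a gene of a docking protein downstream of tyrosine kinases (112 kb, 11 PETs), to the stretch 3.21 kb past the other end (102 kb, 14 PETs) and to the inside of Gfra2 (72.4 kb, 11 PETs). The shortest Gfra2 loop in sham spanned 760 kb.

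The number of Gfra2 loops depended on weak loops. With at least 15 PETs required, the gene kept 4 gene-end loops in MCAO and 2 in sham, a difference of 2. At the sham depth, 6.82 loops would be expected to be kept in MCAO, against 3 in sham. The anchors of loops within 500 kb of Gfra2 had a median of 0.650 reads per kb per 1000000 PETs in MCAO and 0.531 in sham, and 17 loops in MCAO and 11 in sham had an anchor there. The part of this coverage difference in the loop numbers was not tested.

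Gfra1, the GDNF receptor gene, had 3 gene-end and 2 body loops in MCAO, with 115 PETs, and 2 gene-end and 2 body loops in sham, with 102 PETs. Scaled for depth the order turned, with 2.84 PETs per 1000000 in MCAO and 2.92 in sham. At the sham depth 3.44 loops would be expected to be kept in MCAO, against 4 in sham, though thinning can only lower the MCAO number. It lies on chromosome 19 (58235581 to 58455946, minus strand) and is 220 kb long. Most of its loops ended inside Atrnl1, an attractin-like membrane protein gene, with 3 of 5 in MCAO and 4 of 4 in sham. No gene-end loop of either list was matched to a gene-end loop of the other. The start of Gfra1 was joined over 816 kb with 31 PETs and over 703 kb with 49 PETs in MCAO. In sham it was joined over 476 kb with 44 PETs and over 401 kb with 27 PETs. Both MCAO contacts reached farther into Atrnl1, to 57635676 to 57819614, while the sham contacts ended at 57944481 to 58089169.

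The counterpart of both these MCAO loops was a sham loop that does not touch Gfra1. It had 147 PETs, 4.20 per 1000000, and joined Atrnl1 (57672608 to 57807036) to a stretch that begins 49.0 kb beyond the start of Gfra1 (58504946 to 58674861). Its ends are 134 and 170 kb wide, so the counterpart rule reaches far here. A window was chosen after this loop was seen. The window runs between those ends, with the end beside Gfra1 widened to reach the start of Gfra1. The MCAO list had 3 loops there with 96 PETs together, 2.37 per 1000000. Of these, 2 are the gene-end loops of Gfra1 and the third, of 16 PETs, passed over it. The loop of 49 PETs falls in the window only through the widening. The depth-scaled ratios of the gene-end loops to the broad sham loop were 0.182 (0.119 to 0.269) for the loop of 31 PETs and 0.287 (0.204 to 0.400) for the loop of 49 PETs, and neither interval held 1. The anchors compared differ in width and place, so these ratios do not compare the same contact.

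The remaining Gfra1 loops were weaker. In MCAO a loop of 10 PETs over 160 kb joined the start to the inside of the gene, a body loop of 10 PETs over 524 kb reached Atrnl1, and a body loop of 15 PETs over 320 kb reached an end of Pnlip, the pancreatic lipase gene. In sham both body loops reached Atrnl1, with 19 PETs over 524 kb and 12 PETs over 624 kb. The stretch 57701845 to 57819614 of Atrnl1 was the partner of 2 loops in MCAO and 2 in sham.

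**Figure D4:**
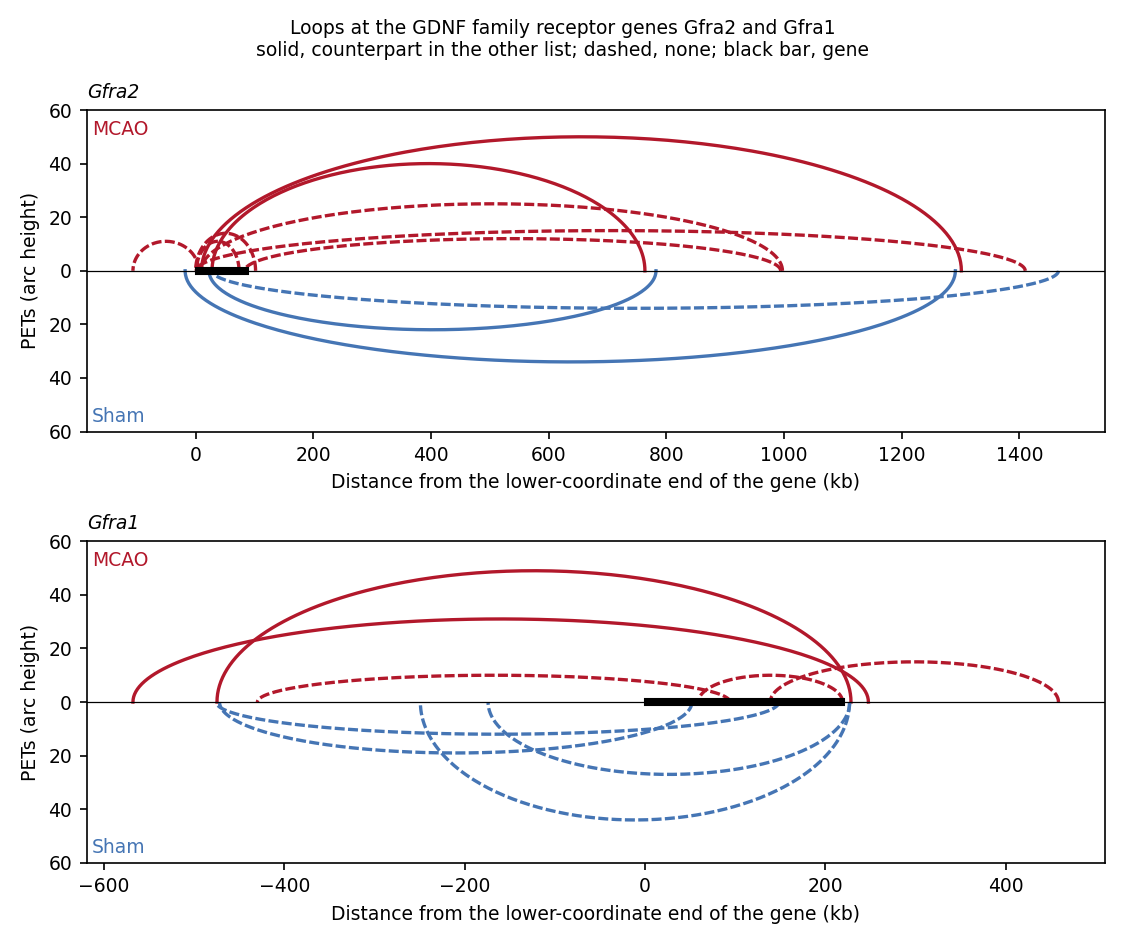
Loops at Gfra2 and Gfra1, with MCAO above the line (red) and sham below it (blue); the x axis is the distance from the lower-coordinate end of the gene in kb and the height of an arc is its number of PETs. At Gfra2 the solid arcs of 50 and 40 PETs in MCAO stand over those of 34 and 22 PETs in sham, and the other 6 MCAO arcs are dashed; at Gfra1 the solid MCAO arcs are matched by a sham loop that does not touch the gene and is not drawn.

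Ret, the shared signalling receptor gene, had 2 loops in each list and a partner common to both. It lies on chromosome 6 (118151748 to 118197744) and is 46.0 kb long. In MCAO a body loop of 21 PETs over 198 kb and a gene-end loop of 17 PETs over 180 kb both went to an end of Bms1, the gene of a GTPase that assembles ribosomes. In sham a gene-end loop of 25 PETs over 188 kb went to the same place and was the counterpart of both. The ratios, 0.724 (0.386 to 1.35) and 0.586 (0.297 to 1.13), had intervals that held 1. They share their sham loop, whose anchor at Ret is 28.4 kb wide, against 13.7 and 12.4 kb for the anchors at Ret in MCAO. Within the sham list the Bms1 loop ranked 388 of 14779 by the authors' hypergeometric p-value. In the MCAO list the Bms1 loops ranked 1088 (body loop) and 2074 (gene-end loop) of 15592. The other sham loop, of 11 PETs over 316 kb, joined the body of Ret to the ends of the zinc finger gene Zfp9 and of Ankrd26.

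Across the 8 genes, 34 loops were listed in MCAO and 20 in sham. Their median span was 534 kb in MCAO and 462 kb in sham, longer in both lists than the medians over all loops given above. Loops over 1 Mb numbered 9 of 34 in MCAO and 4 of 20 in sham, all of them at Ntrk3 and Gfra2. Of all loops, 9.20% in MCAO and 11.5% in sham were over 1 Mb. A counterpart was found for 9 of 34 MCAO loops, 26.5% (12.9 to 44.4), and for 6 of 20 sham loops, 30.0% (11.9 to 54.3). These shares lie near those of all loops, 24.9% in MCAO and 25.6% in sham. Member loops with a counterpart had a median of 31 PETs in MCAO and 23 in sham, and those without had a median of 11 in MCAO and 12 in sham. The counterpart rule allows more distance where anchors are wide, and the same medians over all loops are not given. Whether strong loops recur more often was therefore not tested.

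Of the loops that left the gene, 7 of 28 in MCAO and 6 of 19 in sham ended at an end of another protein-coding gene. A further 7 in MCAO and 6 in sham ended inside a gene, and 14 in MCAO and 7 in sham ended at neither. Loops with both anchors inside the same member numbered 6 in MCAO and 1 in sham, of which 4 in MCAO and 1 in sham were at Ntrk2. All of these had 10 to 14 PETs. The share of such loops among all loops is not given, so these numbers do not set the members apart. Loops with 10 or 11 PETs made up 15 of 34 in MCAO and 5 of 20 in sham, against 37.7% of all loops in MCAO and 42.2% in sham.

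In 7 matched pairs both loops touched the same member. Of these, 4 had more PETs per 1000000 in MCAO (Gfra2 2 pairs, Ntf3 and Ntrk3 1 each) and 3 had fewer (Ret 2 pairs and Ntrk3 1). The Ret pairs set parts of a contact against the same sham loop, so they are not separate decreases. All 7 intervals held 1. In 3 further pairs the counterpart did not touch the member, and all 3 had fewer in MCAO. They are the Gfra1 pairs given above and a pair of the 1309 kb sham loop of Gfra2 with an MCAO loop away from the gene, with a ratio of 0.786 (0.467 to 1.32). The log2 ratios of the 7 pairs ran from -0.77 at Ret to 0.65 at Gfra2. Over the 3547 pairs of all loops that were each other's nearest, the median was -0.21 with quartiles of -0.80 and 0.37. That median equals the log2 depth ratio, sham over MCAO, and without depth scaling it was 0. The Ret pair at -0.77 is not of the same kind, since its sham loop lay nearer to the other Ret loop in MCAO.

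**Figure D5:**
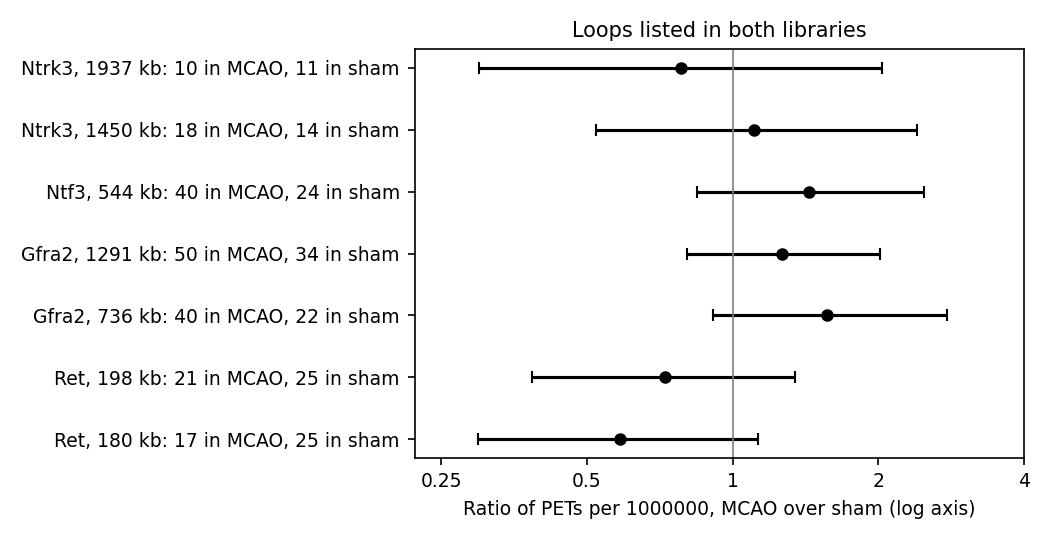
Ratio of PETs per 1000000, MCAO over sham, on a log axis for the 7 matched loop pairs at Gfra2, Ntf3, Ntrk3 and Ret; points are ratios and bars are 95% counting intervals. The points lie between 0.586 and 1.57 and every bar crosses 1. Both Ret points share the same sham loop, so each compares a part with the whole.

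Of the pathway's other genes, 31 are given here by role. They had 47 gene-end loops in MCAO and 34 in sham, with more in MCAO at 13 genes and fewer at 8, next to the 28.7% and 20.7% of all genes given above. Receptors and coreceptors had 13 gene-end loops in MCAO and 2 in sham, with more in MCAO at 4 of 7 genes and fewer at none. Among these, the sortilin-type receptor genes Sorcs2 (6 in MCAO, 1 in sham) and Sorl1 (4 in MCAO, 0 in sham) had the most. Sorcs1 had 2 in MCAO and 1 in sham, and Sorcs3 had 1 in MCAO and 0 in sham. Sort1, Gfra3 and Gfra4 had none in either list.

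The other ligand genes had 7 gene-end loops in MCAO and 5 in sham. Bdnf had 4 in MCAO and 5 in sham, with 1 body loop in each list. Nrtn, which encodes the ligand of GFRα2, had 2 in MCAO and 0 in sham, and Pspn, the persephin gene, had 1 in MCAO and 0 in sham. Ntf5 and Artn had none in either list. The signalling adaptor genes were even, with 27 gene-end loops in MCAO and 27 in sham, more in MCAO at 7 of 19 and fewer at 7. Frs3, an adaptor gene for receptor tyrosine kinases, and Grb2 each had 2 in MCAO and 0 in sham. Plcg1, the phospholipase C gene downstream of Trk receptors, had 1 in MCAO and 3 in sham, and Kidins220, a scaffold gene of Trk receptors, had 0 in MCAO and 2 in sham. Inside genes, Pik3r1, which encodes a regulatory subunit of PI3 kinase, had 9 body loops in MCAO and 3 in sham, while Dok6, a docking protein gene of RET, had 1 in MCAO and 5 in sham.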

How the data were processed

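The members and gene lists were chosen with earlier results of these data known, among them the loop number at Gfra2. HiC-Pro, Bowtie2 and the build mm10 are named in the submitters' processing notes, and for the loop caller no name is given in the sources used here. The counts of PETs per loop and reads per anchor were deposited by the authors without scaling. A deposited signal, density, gives the PETs of a loop for each kb of anchor and each 1000000 PETs of the library, and the library totals used as depth were recomputed from it. The enrichment ratio, the p-values and the FDR (at most 0.05) are deposited values of the authors per loop, used for description and for ranks inside a list. Anchor coordinates are printed as deposited.

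Distances were taken between anchor midpoints. Loop differences and PET ratios have exact binomial intervals, and shares have exact Clopper-Pearson intervals. Whether PETs are separate molecules is unknown, so intervals cover counting error only. Thinning gives the expected number of MCAO loops that keep 10 PETs at the sham depth, from the binomial distribution, and the code was tested on simulated data. The sham list was left as it was, and no thinned value over all genes is given. The genes named are the members, the genes at or nearest to a partner anchor, and further genes of the pathway, some of which are not reported here. Genes at loops that pass over a member were added after their values were seen. Strand came from the promoter table. Python 3.11.15 with numpy 2.4.6, scipy 1.17.1, pandas 2.3.3 and matplotlib 3.10.9 was used.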

Additional observations from a re-analysis of the deposited data

How the results depend on the processing

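With 1 loop list per group, no comparison has replicate error, and weak loops set most of the numbers. With at least 15 PETs per loop, the members had 11 gene-end loops in MCAO and 6 in sham, and 3 body loops in MCAO and 3 in sham. Among the loops on the better side of each list's median hypergeometric p-value, they had 11 gene-end loops in MCAO and 7 in sham, and 3 body loops in MCAO and 2 in sham. Thinned to the sham depth, 17.8 gene-end and 5.75 body loops would be expected in MCAO. Thinning can only lower the MCAO numbers. The difference in body loops, 1 as reported, turned to -4.25 after thinning and to -1 with loops of at least 100 kb. Without Gfra2, a setting chosen after seeing the data, there were 15 gene-end loops in MCAO. The share of sham loops with a counterpart was 55.0% when 2 anchor widths were allowed. With a window of 10 kb the difference in gene-end loops was 3 at Ntrk2, 1 at Ngfr and -1 at both Gdnf and Ret. The difference in gene-end loops kept its sign for the members together in every setting run. No paired analysis was possible because each group has 1 list.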
